A study of Mus musculus with 7 samples.

Results

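The genes described here are 32 transcripts that mark the mature oligodendrocyte and its myelin. They were chosen by symbol, with earlier results of these data known, and read in motor cortex of mice given a virus for GA100. The series title calls them C9orf72 poly-GA mice; poly-GA is a glycine-alanine repeat protein made from the C9orf72 expansion of amyotrophic lateral sclerosis and frontotemporal dementia. All 32 were found, 1 row each, among the 54532 genes of the count table, and all 32 passed the filter on low counts that left 16308 genes. The conditional knockout group (cKO) had 4 libraries and the wild-type group (WT), titled as controls, had 3. Every mouse of both groups had received the GA100 virus in the left and right lateral ventricles on postnatal day 0, and tissue was taken 3 months later, after behavioural testing. The labels name neither the deleted gene, the Cre driver nor the cells that lack the gene, and tissue without virus was not analysed here, so both genotypes carry the virus throughout.

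Oligodendrocytes wrap axons of the central nervous system in myelin, a stack of membranes rich in cholesterol and galactolipids and held together by a few very abundant proteins. The cells arise from precursors that first exit the cell cycle and pass through a premyelinating stage. OLIG1, OLIG2 and SOX10 act throughout the lineage, and MYRF is needed for the step to the myelinating cell. In cortex, myelin is densest in deep layers and in the white matter beneath. In a bulk sample, fewer cells of a type and less RNA per cell cannot be told apart.

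Library totals lay between 15181390 and 16463721 counts. The members were read from 53 (Ppp1r14a, cKO replicate 3) to 45239 counts (Mbp, cKO replicate 1). The series title names TIA1, and the Tia1 transcript stood at 79.1 ± 4.29 CPM (counts scaled to a common library size) in cKO (SD, n = 4) and 75.1 ± 18.4 CPM in WT (SD, n = 3), so its level did not separate the labelled genotypes. No label says that each library is a separate mouse, and the p-values therefore rest on variation among libraries, which may be partly technical. Y-linked counts did not exceed 100 in cKO replicate 1 and WT replicate 1, and did in every other library. Each group therefore holds more than 1 mouse and mixes the sexes. Defining transcripts of cortex were present, with Slc17a7, the vesicular glutamate transporter of cortical excitatory neurons, at 1058 ± 59.2 CPM in cKO (SD, n = 4) and 1305 ± 184 CPM in WT (SD, n = 3). Pmp2, a lipid-binding protein of Schwann cell myelin, had 0 counts in all 7 libraries, which allows a level of up to 0.182 to 0.198 CPM (3 counts of a library, counting error only).

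2 libraries were low for most of these genes, 1 in each group, and every result below rests in part on them. By the outlier criterion given further below, no cKO library was far from the others for any of the 32 genes. The WT libraries were not examined by it. Of the 32 members, 15 had their lowest level of all 7 libraries in cKO replicate 3 and 16 had it in WT replicate 1. Padi2 was the exception, with its lowest value in WT replicate 2. In the other direction, 22 members were highest in cKO replicate 2, 5 in cKO replicate 4, 4 in cKO replicate 1 and 1, Mal, in WT replicate 2. The 32 genes together held 0.632%, 0.722%, 0.356% and 0.659% of all counts in cKO replicates 1 to 4, against 0.366%, 0.563% and 0.490% in WT replicates 1 to 3. The groups overlapped, since cKO replicate 3 lay below all 3 WT libraries while the other cKO libraries lay above them. Transcripts of meningeal fibroblasts, cells of the membranes over the cortex, were highest in the same pair of libraries: 10 of 10 markers were detected, and their summed level was 114.5 CPM in cKO replicate 3 and 41.5 to 66.9 CPM in the other cKO libraries, against 101.0 CPM in WT replicate 1 and 42.1 to 54.7 CPM in the other WT libraries. The mitochondrial share of counts was also highest in cKO replicate 3, at 7.54%, against 5.68% to 6.11% in the other cKO libraries, and was 5.80% in WT replicate 1. Over all genes, cKO replicate 3 differed most from the other libraries. It had the fewest genes detected, at 23168 against 23611 to 24956 in the other libraries. Chi-square per degree of freedom, a measure of the difference between 2 libraries, was 16.6 to 24.0 in pairs with it. In all other pairs it was 4.19 to 16.6. The part of any of these in the myelin values was not tested.

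**Figure D1:**
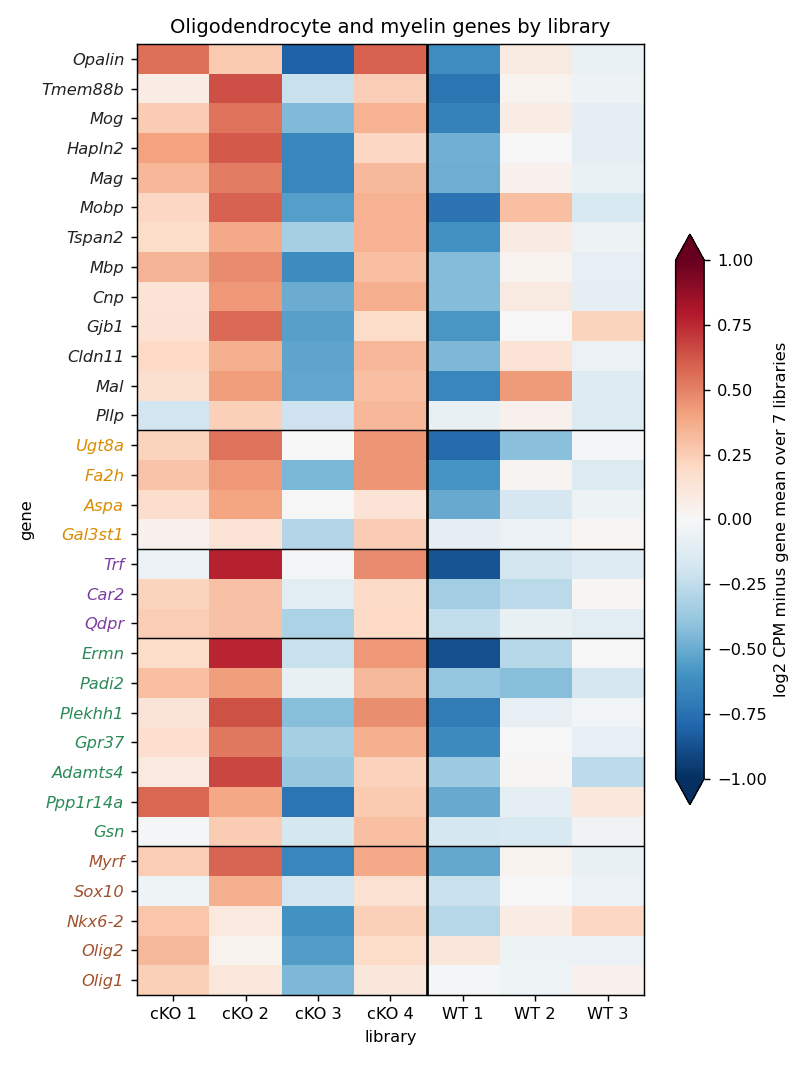
Each row is a gene, grouped and coloured by role, each column a library, and the colour gives the log2 CPM of that library relative to the average of the 7. The columns of cKO replicate 3 and WT replicate 1 are blue for most genes, and those of cKO replicates 2 and 4 are red.

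The stretch just upstream of the members' start sites was read for short motifs of the factors named above. RefSeq promoters (GRCm38.p6, the mm10 assembly) were matched by symbol for 24 members, and the 250 bases before the first listed start were searched on both strands. Adamts4, Car2, Fa2h, Mbp, Myrf, Olig1, Sox10 and Trf were not matched. A MYRF motif, CTGGCAC or CTGGTAC, was present in 4 of 24 members (16.7%), namely Cnp, Hapln2, Mag and Mog, and in 5.86% of the 27025 promoters of that length. A SOX motif, ACAAAG or AACAAT, was present in 9 of 24 (37.5%) and in 24.2% of all, and an E-box of the kind that OLIG proteins bind, CAGCTG or CAGATG, in 9 of 24 (37.5%) and in 25.3% of all. CAGCTG and CTGGCAC can share letters, and a match is a description of the sequence alone. The 4 sequences below are given 5′ to 3′ on the gene's strand, with motif matches in capitals, and end at the base before the start site. Mag (chr7:30914864-30915113, minus strand) and Cnp (chr11:100574689-100574938, plus strand) each hold a MYRF and a SOX match, while Ugt8a (chr3:125938653-125938902, minus strand) and Ermn (chr2:58052865-58053114, minus strand) hold none of the letters searched. The 4 are shown as examples with and without matches. A relation of matches to the size of the difference between cKO and WT was not tested. Ugt8a, Ermn, Padi2 and Plekhh1 had the largest log2 fold changes of the members matched to a promoter (0.69, 0.68, 0.59 and 0.50), and all hold none. Cldn11, Mal, Gal3st1, Pllp and Nkx6-2 also hold none, with log2 fold changes from 0.04 (Nkx6-2) to 0.23 (Cldn11). Aspa (0.42) and Opalin (0.44) hold SOX and E-box matches.
Mag: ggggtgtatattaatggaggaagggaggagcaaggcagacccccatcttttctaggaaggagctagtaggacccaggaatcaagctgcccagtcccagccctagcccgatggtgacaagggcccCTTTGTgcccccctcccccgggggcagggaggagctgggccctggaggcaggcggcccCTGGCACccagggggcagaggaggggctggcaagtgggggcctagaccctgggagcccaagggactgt
Cnp: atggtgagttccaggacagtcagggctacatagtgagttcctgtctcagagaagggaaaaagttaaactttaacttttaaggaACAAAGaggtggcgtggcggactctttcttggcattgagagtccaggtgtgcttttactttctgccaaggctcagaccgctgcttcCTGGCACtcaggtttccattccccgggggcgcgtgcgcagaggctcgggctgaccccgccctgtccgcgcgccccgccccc
Ugt8a: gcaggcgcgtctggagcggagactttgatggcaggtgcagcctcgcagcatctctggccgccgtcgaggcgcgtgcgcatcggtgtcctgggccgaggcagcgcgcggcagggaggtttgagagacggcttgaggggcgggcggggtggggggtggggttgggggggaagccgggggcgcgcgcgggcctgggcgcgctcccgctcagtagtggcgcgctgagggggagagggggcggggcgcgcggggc
Ermn: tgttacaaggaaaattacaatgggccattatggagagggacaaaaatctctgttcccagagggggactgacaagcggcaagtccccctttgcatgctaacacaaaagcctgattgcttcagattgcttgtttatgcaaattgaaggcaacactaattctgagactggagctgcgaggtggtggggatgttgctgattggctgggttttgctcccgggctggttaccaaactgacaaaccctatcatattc
The Ugt8a stretch is 76.8% G and C, the Ermn stretch 47.2%, and those of Mag and Cnp 66.0% and 57.2%.

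The comparison of cKO with WT gave a positive log2 fold change, which means higher in cKO, for 32 of 32 members, with a median of 0.35 and a range from 0.03 (Olig1) to 0.71 (Trf). Over all genes tested, 51.8% were positive and the median was 0.01. The members were chosen with earlier results of these data known, and most shared their low libraries, cKO replicate 3 and WT replicate 1. Their 32 signs are therefore not independent, and the shares of all genes given here are not a like comparison. The largest differences were in Trf, Ugt8a, Ermn and Padi2, and the smallest in the transcription factors Olig1, Olig2 and Nkx6-2. No member passed the threshold of an adjusted p under 0.05 in edgeR's quasi-likelihood test with Benjamini-Hochberg adjustment, which called 0 of 16308 genes (0.00%), and the members' adjusted p ran from 0.669 to 0.980. At an unadjusted p under 0.05 there were 8 members, all with higher values in cKO, where 4.22% of all genes were at that p in that direction. They were Padi2, Ugt8a, Car2, Trf, Ermn, Aspa, Gpr37 and Plekhh1. DESeq2 called 6 genes (0.0368%) and no member, with adjusted p of 0.0501 for Padi2 and 0.0534 for Ugt8a. Blocking on replicate number gave 2 called genes, neither of them a member. With no filter on low counts and no block, edgeR called 198 of 31277 genes, 10 of them members and all 10 higher in cKO. The prior degrees of freedom of that fit were estimated as infinite, against 7.03 with the filter. The groups did not overlap for 4 members, Ugt8a, Padi2, Trf and Aspa, where 3.97% of all genes had every cKO library above every WT library. An exact two-sided permutation test of 4 against 3 libraries cannot give a p below 0.0571, so it cannot pass 0.05 for any gene. In 25 members cKO replicates 1, 2 and 4 each lay above all WT libraries, as in 7.69% of all genes, while cKO replicate 3 lay below all WT libraries in 15 members, within their range in 13 and above it in 4. Here cKO replicate 3 is set apart because the members were low in it, so the 7.69% is not a like comparison.

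The size of these differences depended on single libraries. Without cKO replicate 3, 25 members were at an unadjusted p under 0.05 (5.50% of all genes, higher in cKO), the median member log2 fold change was 0.52, and the lowest adjusted p was 0.0922. Without WT replicate 1 the count was 2 (2.07% of all genes), the median was 0.21 and 30 of 32 values were positive. With both left out, a comparison of 3 cKO with 2 WT libraries, the count was 25 (4.20% of all genes), the median was 0.36 and 32 of 32 were positive. Without cKO replicate 2 the median was 0.22. In none of these 4 fits did a member pass the adjusted threshold. Attention fell on cKO replicate 3 and WT replicate 1 because the members themselves were lowest there. Leaving them out therefore narrows the spread of the members in particular, and the shares over all genes are not a like comparison.

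**Figure D2:**
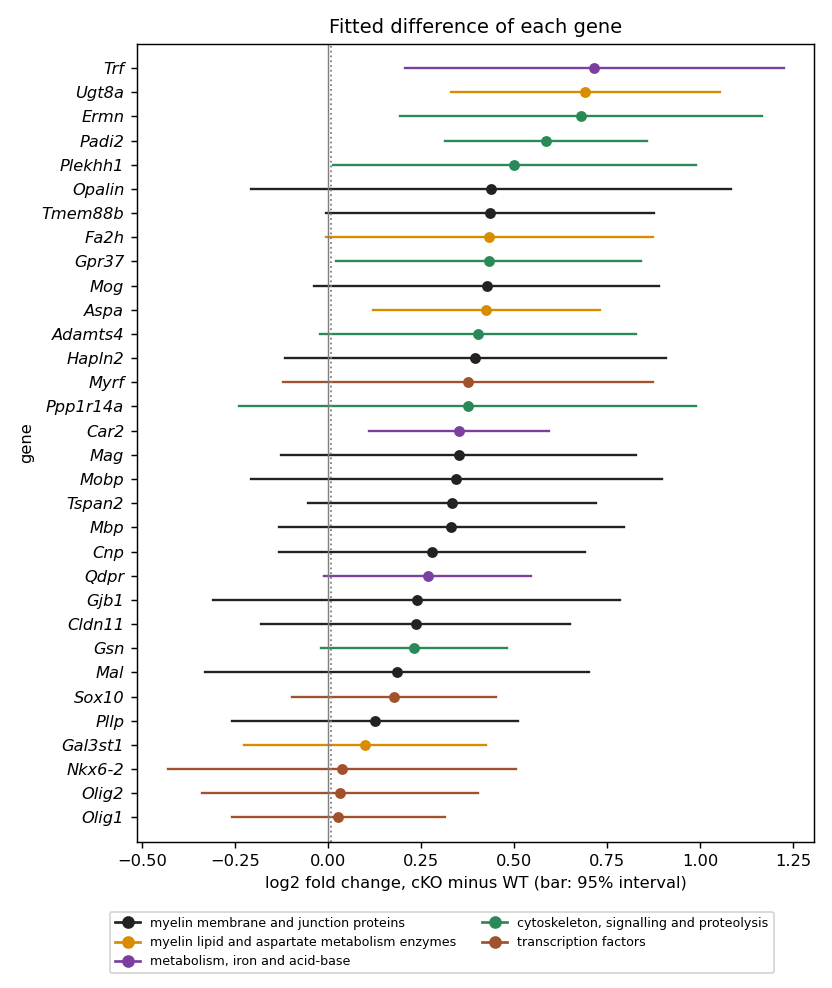
Points are log2 fold changes of the 32 genes, cKO minus WT, from edgeR with all 7 libraries, bars are 95% intervals, colours are roles, the solid line is 0 and the dotted line is the median of all genes tested (0.01). All 32 points lie right of 0, and 8 intervals, from Car2 at 0.35 to Trf at 0.71, leave out 0.

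Enzymes of myelin lipids and of aspartate metabolism, 4 of the 32 members, held 2 of the 4 genes whose groups did not overlap. Of all genes, 3.97% had every cKO library above every WT library. Ugt8a (chromosome 3, 125865271 to 125938619, mm10, minus strand) encodes the ceramide galactosyltransferase that makes galactocerebroside, the main glycolipid of myelin. It stood at 87.7, 109.8, 75.2 and 102.1 CPM in cKO replicates 1 to 4, against 44.0, 56.0 and 74.4 CPM in WT replicates 1 to 3. Each cKO library lay above each WT library, though cKO replicate 3 and WT replicate 3 were almost equal. The log2 fold change was 0.69 ± 0.17 (SE), a 95% interval from 0.33 to 1.05, with an edgeR adjusted p of 0.669. Leaving out any 1 library moved it between 0.52 and 0.91.

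Aspa encodes aspartoacylase, which splits N-acetylaspartate and so supplies acetate for lipid synthesis. It had 19.7, 22.9, 17.5 and 19.2 CPM in cKO, against 12.1, 15.4 and 16.8 CPM in WT, a log2 fold change of 0.42 ± 0.14 (SE). The cKO values were all higher, by a narrow margin between cKO replicate 3 and WT replicate 3. Fa2h, the fatty acid 2-hydroxylase that supplies hydroxylated chains to galactolipids, had 48.8, 54.1, 29.0 and 54.4 CPM in cKO and 26.4, 40.8 and 36.4 CPM in WT. Its groups overlapped through cKO replicate 3, and the log2 fold change was 0.43 ± 0.20 (SE). Gal3st1, which sulfates galactocerebroside to sulfatide, was close between the groups, at 10.9 ± 1.76 CPM in cKO (SD, n = 4) and 10.2 ± 0.429 CPM in WT (SD, n = 3), a log2 fold change of 0.10 with a 95% interval from -0.23 to 0.42.

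Among genes of metabolism, iron and acid-base balance, Trf had the largest log2 fold change of the 32. It encodes transferrin, the iron carrier that oligodendrocytes make in the brain. Its level was 13.3, 24.0, 13.7 and 19.5 CPM in cKO, against 7.40, 12.2 and 12.7 CPM in WT, from 121 to 361 counts per library. The groups did not overlap, but cKO replicates 1 and 3 lay just above WT replicates 2 and 3. The log2 fold change was 0.71 ± 0.23 (SE), between 0.50 and 0.85 without any 1 library. Car2, the cytosolic carbonic anhydrase of oligodendrocytes, had 171.5, 180.7, 136.4 and 168.5 CPM in cKO and 115.8, 122.3 and 148.5 CPM in WT. Only cKO replicate 3 fell within the WT range, and the log2 fold change was 0.35 ± 0.11 (SE). Qdpr, a reductase that regenerates tetrahydrobiopterin, had 108.9 ± 19.4 CPM in cKO (SD, n = 4) and 90.5 ± 5.59 CPM in WT (SD, n = 3).

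Cytoskeletal, signalling and protease genes, 7 of the 32 members, held 4 of the 8 members at an unadjusted p under 0.05. Of all genes, 4.22% were at that p and higher in cKO. Padi2 (chromosome 4, 140906344 to 140952586, mm10, plus strand) encodes a peptidylarginine deiminase that citrullinates myelin basic protein. It had 36.7, 40.0, 28.3 and 37.5 CPM in cKO, against 22.7, 22.1 and 26.5 CPM in WT. All cKO libraries were above all WT libraries, and of the 32 members it had the smallest unadjusted edgeR p (0.000518, adjusted p 0.669). The log2 fold change of 0.59 ± 0.12 (SE) stayed between 0.52 and 0.67 without any 1 library.

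Ermn, which encodes the cytoskeletal protein ermin of the outer myelin loops, had 104.6, 156.0, 78.7 and 124.4 CPM in cKO and 49.7, 75.5 and 92.2 CPM in WT. Here cKO replicate 3 lay below WT replicate 3, and the log2 fold change was 0.68 ± 0.22 (SE). Plekhh1, named for its pleckstrin homology domain, and Gpr37, an orphan receptor of oligodendrocytes, had log2 fold changes of 0.50 ± 0.22 and 0.43 ± 0.19 (SE). In both, cKO replicates 1, 2 and 4 were above all WT libraries and cKO replicate 3 was within the WT range, at 32.1 CPM of Plekhh1 (26.4 to 42.4 CPM in WT) and 57.8 CPM of Gpr37 (46.6 to 72.7 CPM in WT). Adamts4, an aggrecanase, Gsn, the actin-severing protein gelsolin, and Ppp1r14a, an inhibitor of myosin phosphatase, had values of 0.40, 0.23 and 0.37, with 95% intervals that spanned 0.

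**Figure D3:**
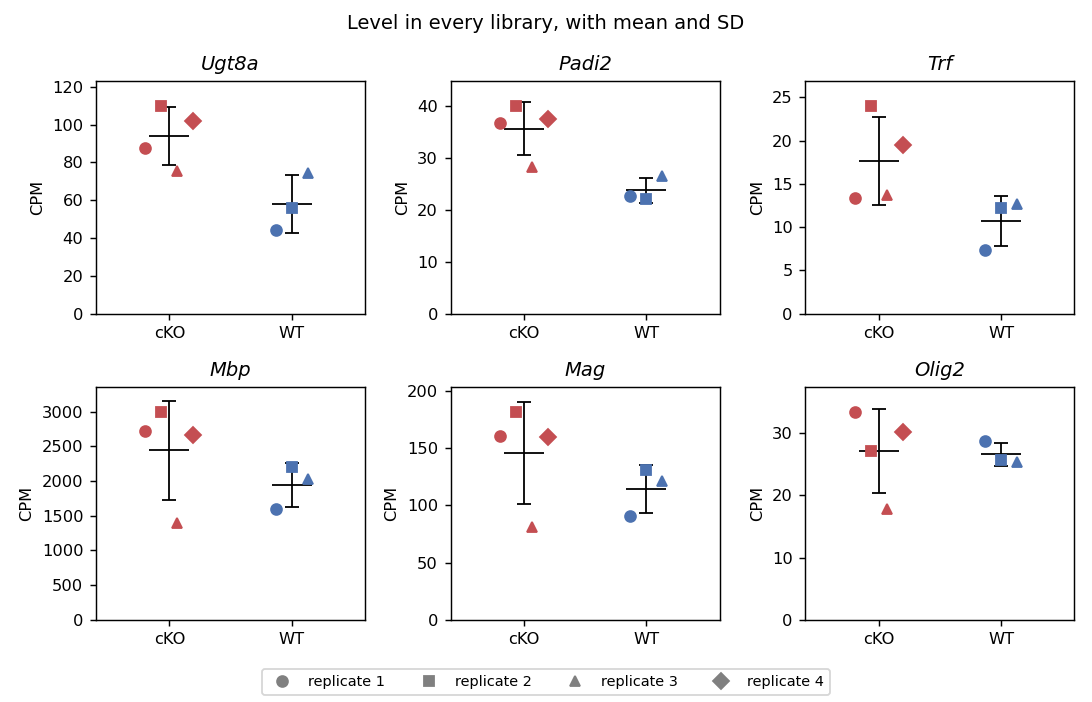
Each point is the CPM of a gene in 1 library, with the symbol giving the replicate number, and bars are the mean and SD of 4 cKO and 3 WT libraries. Ugt8a, Padi2 and Trf show no overlap between groups, whereas cKO replicate 3 lies below all WT libraries for Mbp (1391 CPM), Mag (80.7 CPM) and Olig2 (17.9 CPM).

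The 13 proteins of the myelin membrane and its junctions all had positive values, with a median log2 fold change of 0.33. At an unadjusted edgeR p under 0.05 there were 0 of 13, where 4.22% of all genes were at that p and higher in cKO. Mbp (chromosome 18, 82475146 to 82585637, mm10, plus strand) encodes myelin basic protein, which fuses the cytoplasmic faces of the membrane. It had 2727, 2993, 1391 and 2659 CPM in cKO, against 1591, 2205 and 2031 CPM in WT. Among the cKO libraries, 3 exceeded every WT library and replicate 3 was below them all, so the log2 fold change of 0.33 ± 0.21 (SE) was 0.52 without cKO replicate 3 and 0.20 without WT replicate 1.

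Mag, the myelin-associated glycoprotein of the axon-facing membrane, followed the same order, with 160.4, 181.4, 80.7 and 159.9 CPM in cKO and 90.7, 130.8 and 121.4 CPM in WT. Mobp, a small basic protein of compact myelin, had 1054, 1370, 620.1 and 1162 CPM in cKO and 545.2, 1122 and 817.7 CPM in WT. For Mobp 2 cKO libraries lay within the WT range, as WT replicate 2 was high. Mal, a proteolipid that sorts proteins to myelin, had its highest level in that WT library, with 288.2, 343.5, 179.5 and 316.2 CPM in cKO and 163.2, 345.9 and 234.8 CPM in WT. Its log2 fold change of 0.18 ± 0.24 (SE) was -0.05 without WT replicate 1 and 0.49 without WT replicate 2.

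Mog, a glycoprotein of the outermost myelin surface, had 61.3, 75.2, 37.7 and 65.7 CPM in cKO, against 32.01, 54.1 and 48.0 CPM in WT. Opalin, a membrane protein of mammalian oligodendrocytes, had 14.1, 11.4, 5.21 and 14.5 CPM in cKO, against 6.00, 10.1 and 9.05 CPM in WT. In Opalin cKO replicate 3 was the lowest of 7, and in Mog it was second to WT replicate 1. Cnp, a phosphodiesterase that keeps cytoplasmic channels of myelin open, Cldn11, the claudin of its tight junctions, Tspan2, a tetraspanin, Hapln2, a link protein of the node of Ranvier, and Tmem88b had cKO replicates 1, 2 and 4 above all WT libraries, with log2 fold changes between 0.23 and 0.44. Gjb1, the gap junction protein connexin 32, and Pllp, the proteolipid plasmolipin, had 0.24 ± 0.25 and 0.13 ± 0.18 (SE), with the groups mixed.

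Transcription factors of the lineage were the role with the smallest differences, a median log2 fold change of 0.04 over 5 genes. Olig1 had 132.9, 121.3, 82.6 and 122.4 CPM in cKO, against 112.2, 109.4 and 116.6 CPM in WT. Olig2 had 33.4, 27.2, 17.9 and 30.1 CPM in cKO, against 28.8, 25.6 and 25.4 CPM in WT. Both were low in cKO replicate 3 alone, and WT replicate 1 was not low for either. The intervals of the difference ran from -0.26 to 0.31 for Olig1 and from -0.34 to 0.40 for Olig2, and both signs turned in the fit with the replicate number as a block (-0.0308 and -0.0582), on log2(FPKM + 1) (-0.0036 and -0.0100) and in some fits without 1 library. Nkx6-2, a homeobox factor, had 0.04 ± 0.22 (SE), and its sign turned in the block fit (-0.0625), on log2(FPKM + 0.1) (-0.0033) and in 3 fits without 1 library. Sox10 had 37.0, 48.8, 33.2 and 42.3 CPM in cKO and 32.6, 37.9 and 36.5 CPM in WT, a log2 fold change of 0.18 ± 0.13 (SE). Myrf had the largest difference of the 5, with 93.6, 118.0, 49.9 and 102.3 CPM in cKO, against 55.1, 80.7 and 74.6 CPM in WT, and a log2 fold change of 0.38 ± 0.23 (SE).

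The members also differed in how far they dropped in the low library of each group. Relative to the mean of the other cKO libraries, cKO replicate 3 held from 0.390 (Opalin) to 0.847 (Aspa) of a member's level, with a median of 0.595, where the median of all genes tested was 0.993. The ratio was 0.498 for Mbp, 0.483 for Mag and 0.420 for Ppp1r14a, but 0.753 for Ugt8a, 0.744 for Padi2 and 0.786 for Car2. Relative to the other WT libraries, WT replicate 1 held from 0.562 (Mal) to 1.13 (Olig2), with a median of 0.714, where that of all genes was 0.995. Trf, at 0.725 in cKO replicate 3 and 0.596 in WT replicate 1, and Ugt8a, at 0.753 and 0.675, had the lower ratio in WT replicate 1, whereas Olig2 (0.590 and 1.13) and Mbp (0.498 and 0.751) had it in cKO replicate 3. Within a library, Ugt8a gave 32.2, 36.7, 54.1 and 38.4 counts per 1000 counts of Mbp in cKO and 27.7, 25.4 and 36.6 in WT. That ratio was highest in cKO replicate 3, the library with the fewest Mbp counts, and cKO replicate 1 lay below WT replicate 3. These ratios describe single libraries and were not tested.

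**Figure D4:**
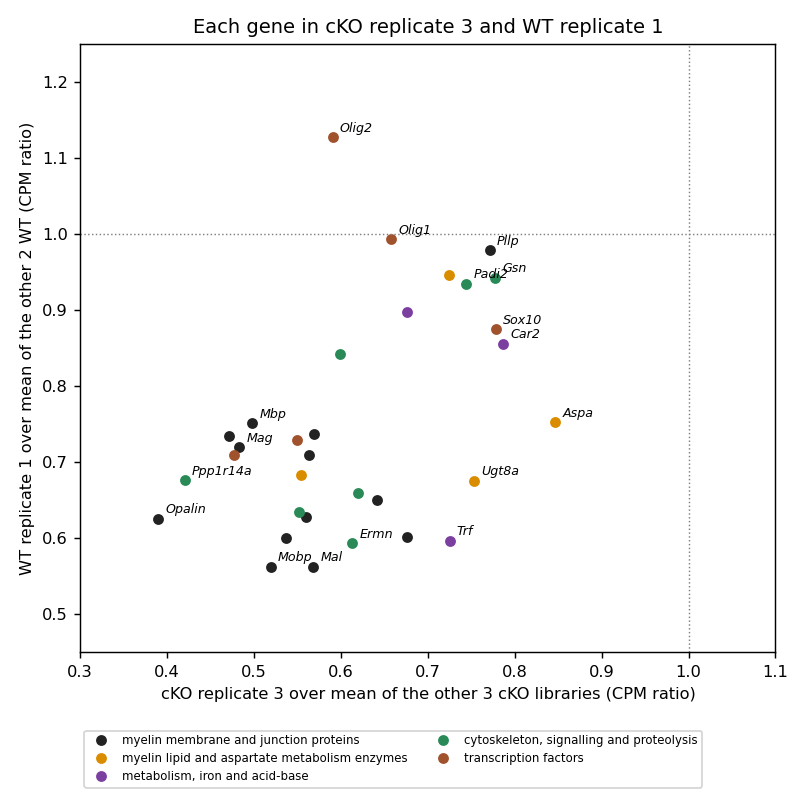
Each point is 1 of the 32 genes, with the CPM of cKO replicate 3 over the mean of the other 3 cKO libraries on the x axis and the CPM of WT replicate 1 over the mean of the other 2 WT libraries on the y axis, and dotted lines at 1. All 32 points lie left of 1, and Olig2, at 1.13 on the y axis, lies above 1.

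Per length, on the deposited FPKM scale, which divides by gene length, Mbp was the most abundant member, at 288 ± 83.4 FPKM in cKO (SD, n = 4) and 231 ± 36.6 FPKM in WT (SD, n = 3), followed by Mobp at 152 ± 45.3 and 121 ± 41.5 FPKM. Mal, Cnp and Cldn11 came next in both groups and lay within their spread of one another, with Mal at 100.7 ± 25.3 FPKM in cKO and 89.1 ± 32.6 FPKM in WT and Cldn11 at 83.3 ± 20.6 and 71.2 ± 13.9 FPKM. Car2 was sixth in both groups. The least abundant in both groups was Aspa, at 3.31 ± 0.371 FPKM in cKO and 2.48 ± 0.398 FPKM in WT. Pllp had 3.59 ± 0.739 FPKM in cKO and 3.31 ± 0.214 FPKM in WT. Trf, at 5.28 ± 1.51 FPKM in cKO and 3.23 ± 0.867 FPKM in WT, ranked 29th in cKO and 31st in WT. Ugt8a ranked 14th in cKO and 15th in WT, at 20.5 ± 3.29 and 12.8 ± 3.37 FPKM.

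Other genes of the lineage, from lists that share no gene with the 32, were set beside them. These lists, too, were chosen with earlier results of these data known. Of 33 other mature oligodendrocyte genes, 32 had positive log2 fold changes, with a median of 0.24, and 11 were at an unadjusted p under 0.05 in that direction (4.22% of all genes). The most abundant of that list, Tppp, a tubulin polymerization factor, and Tubb4a, a tubulin that neurons also express, had -0.05 ± 0.08 and 0.05 ± 0.09 (SE). The list was lowest in the same libraries as the members, at -0.23 in cKO replicate 3 and -0.35 in WT replicate 1 on the scale of mean log2 deviation from each gene's mean. Premyelinating genes had 10 positive values of 12, a median of 0.12 and 3 genes at an unadjusted p under 0.05. Bcas1, a marker of newly formed oligodendrocytes, had 152.3 ± 40.7 CPM in cKO (SD, n = 4) and 120.1 ± 26.3 CPM in WT (SD, n = 3), and the kinase gene Fyn, which neurons also express, had 105.3 ± 4.49 and 106.3 ± 3.42 CPM.

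Of 12 precursor genes, 8 had positive and 4 negative values, with a median of 0.05, and the list mean stayed between -0.06 and 0.03 in all 7 libraries. Single genes varied more, and 2 are named after their values were seen. Cspg4, the proteoglycan NG2 of precursors and pericytes, had 24.3, 21.3, 16.6 and 23.0 CPM in cKO, against 29.5, 26.9 and 23.3 CPM in WT, and was the 1 gene of the list at an unadjusted edgeR p under 0.05, lower in cKO (2.91% of all genes). Lhfpl3 stood at 39.3 CPM in cKO replicate 3 and 19.9 to 20.2 CPM in the other cKO libraries, against 17.8 to 20.7 CPM in WT. Ptprz1, a receptor phosphatase of precursors and astrocytes, had 328 ± 11.3 CPM in cKO (SD, n = 4) and 295 ± 21.1 CPM in WT (SD, n = 3), with no overlap, and Tnr, a matrix glycoprotein, had 306 ± 13.8 and 322 ± 18.7 CPM. The median differences of 0.35, 0.24, 0.12 and 0.05 for members, other mature, premyelinating and precursor genes are descriptions, and the differences between the lists were not tested. For genes of sphingolipid and very long chain lipid synthesis and breakdown, 14 of 17 values were positive, with a median of 0.13. At an unadjusted edgeR p under 0.05 there were 5 genes, all higher in cKO. Of all genes, 51.8% were positive and 4.22% were at that p in that direction. Scd2, a desaturase, had 1994 ± 155 CPM in cKO and 1751 ± 180 CPM in WT, and Psap, the lysosomal activator of galactolipid breakdown, had 1288 ± 48.9 and 1331 ± 65.9 CPM (SD, n = 4 and 3). In all of these lists 0 genes passed the adjusted threshold.

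**Figure D5:**
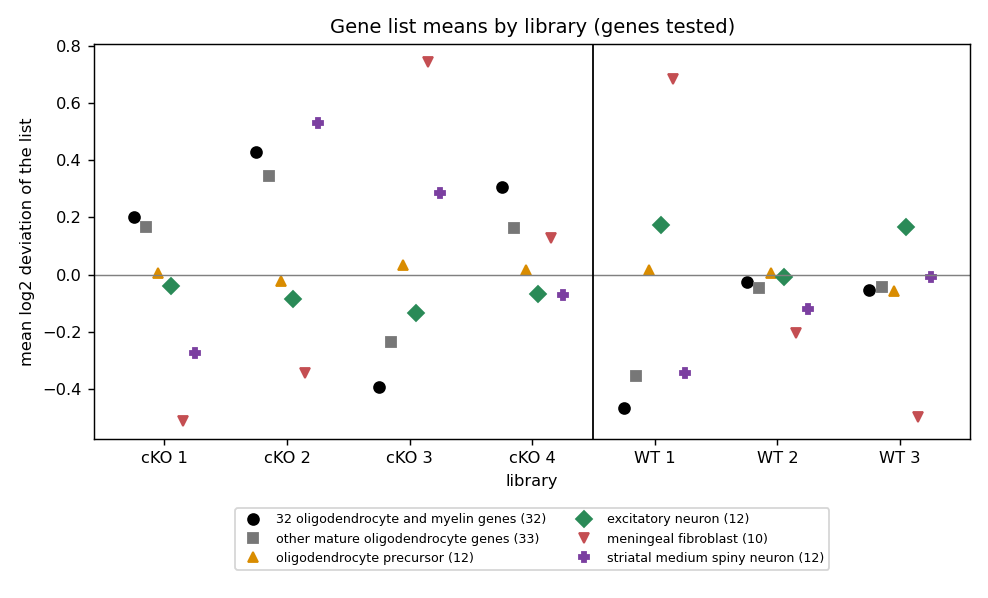
Points give, for each library, the average over a list's tested genes of log2 CPM relative to each gene's own average, for 6 lists. The 32 genes are at -0.39 in cKO replicate 3 and -0.47 in WT replicate 1, where the meningeal fibroblast list is at 0.74 and 0.68, and the precursor list stays between -0.06 and 0.03.

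Markers of other cells in the dissected piece differed between libraries as well. Excitatory neuron markers had 10 negative values of 12, a median log2 fold change of -0.21, with 5 genes at an unadjusted p under 0.05 in that direction (2.91% of all genes), and their summed level was 4920 to 6144 CPM in cKO and 6148 to 6763 CPM in WT. Striatal medium spiny neuron markers, of a region that lies under the white matter, had 12 positive values of 12 and a median of 0.27. The most abundant were Pde10a, a phosphodiesterase, at 426.8 ± 107.6 CPM in cKO and 348.3 ± 58.6 CPM in WT, and Adcy5, an adenylyl cyclase, at 414 ± 87.8 and 372.5 ± 15.97 CPM (SD, n = 4 and 3). The summed level of the list was highest in cKO replicate 2, at 2644 CPM, the library in which 22 of the 32 members were highest. It was second highest in cKO replicate 3, at 2113 CPM, where the members were at their lowest among cKO libraries on average, and it was 1534 and 1765 CPM in cKO replicates 1 and 4 and 1509 to 1849 CPM in WT.  Microglia had 8 negative values of 10 and astrocytes 7 positive of 10, with medians of -0.16 and 0.07. The part of these cells in the myelin values was not tested.

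Of the 32 genes, 7 overlap another gene whose counts exceed 1% of the member's own, each on the opposite strand, and the protocol describes no strand marking, so reads there cannot be assigned with certainty. They include Nkx6-2 with Inpp5a, Cnp with Dnajc7, Pllp with Gm45767, Plekhh1 with Pigh, Padi2 with Gm13031 and Tspan2 with Tshb. The overlapping counts came to 1.58% of those of Padi2 and 10.7% of those of Plekhh1, and for Ugt8a, Aspa and Mag no overlapping gene is annotated in the table.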

How the data were processed

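The members and gene lists were chosen with earlier results of these data known. Raw counts per gene and FPKM values were deposited by the authors as 2 tables; the tools were featureCounts (1.5.0-p3) and DESeq2 (1.20.0) on the mm10 build, per the submitters' processing notes. For the aligner, annotation release and strand setting, the sources used here give nothing. The deposited FPKM imply library totals of 0.968 to 1.02 times the count sums.

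Counts of all genes were fitted with edgeR 4.0.16 in R 4.3.3 (TMM factors, default filterByExpr, quasi-likelihood F test, genotype as factor) and adjusted by Benjamini-Hochberg over 16308 genes. CPM use TMM-scaled library sizes; 0.5 was added before log2 for library deviations. Standard errors are the log2 fold change over the root of F, and intervals are 95%. Named genes are all members and the 2 most abundant genes of each other list, as none passed the threshold; others were chosen after their values were seen, and a few genes the rule names are not reported here. Chi-square per degree of freedom between libraries was 4.19 to 24.0, so none was a duplicate. Same-numbered cKO and WT libraries correlated in their deviations at 0.110, 0.128 and 0.122, all over 0.1, but cKO replicate 3 with WT replicate 1 gave 0.129 and cKO replicate 4 with WT replicate 2 gave 0.210, so the pairing is a weak one. The main fit is unpaired, and the replicate block is an alternative. Only cKO has a replicate 4, so the block term takes up that library. The difference estimated with the block comes from replicates 1 to 3 of each group. Alternatives were other scalings, filters and tests (DESeq2 1.42.0, limma 3.58.1), FPKM, terms for the presence of Y-linked counts and for replicate number, and left-out libraries. The libraries held 15181390 to 16463721 counts, and low counts limit the precision of Ppp1r14a, Opalin, Pllp and Nkx6-2.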

Additional observations from a re-analysis of the deposited data

Results flagged for a closer look

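Of 47 sets of 4 cKO values examined (32 genes and 15 list means), 1 had a library far from the others by Dixon's criterion at 95%, where chance flags about 1 in 20. It was the choroid plexus list, with a mean log2 deviation of 1.71 in cKO replicate 4 against -0.33 to -0.02 in the other cKO libraries, over 3 tested genes. The list's summed level was 174.9 CPM in cKO replicate 4 and 19.8 to 22.1 CPM in the other cKO libraries, and 14.3 to 22.7 CPM in WT. Most of it was Ttr, which encodes transthyretin, at 153.6 CPM in cKO replicate 4 and 7.10 to 12.8 CPM in the other cKO libraries, and 7.10 to 15.0 CPM in WT. For the 32 myelin genes, no cKO library passed this criterion, and WT libraries were not examined. For these genes cKO replicate 4 had a mean deviation of 0.31, between those of cKO replicates 1 (0.20) and 2 (0.43).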

How the results depend on the processing

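Over 20 alternatives, the median member log2 fold change stayed positive (0.21 to 0.52 without 1 library, 0.26 with the replicate block). The number of positive members was 29 to 32 without 1 library and 29 with the block. With no filter on low counts edgeR called 198 genes, 10 of them members (Ugt8a, Ermn, Padi2, Trf, Plekhh1, Tmem88b, Gpr37, Mog, Fa2h and Myrf), all higher in cKO; in that fit of 31277 genes the prior degrees of freedom were infinite, against 7.03 with the filter, and the SE of Ermn was 0.0977 against 0.223. No member was called in any other alternative. Genes called over the whole table were 6 in DESeq2, 3 on log2(FPKM + 1) with no filter, 2 with the replicate block, 1 without WT replicate 1 and cKO replicate 3 together, 0 to 3 without 1 library, and 0 otherwise. Signs turned for Olig1, Olig2 and Nkx6-2 with the block (-0.0308, -0.0582 and -0.0625) and on log2(FPKM + 0.1) (-0.0040, -0.0139 and -0.0033), and for Olig1 and Olig2 on log2(FPKM + 1), with and without filter (-0.0036 and -0.0100). Without 1 library they ranged from -0.0598 to 0.1481 (Olig1), -0.0935 to 0.1782 (Olig2) and -0.1047 to 0.2005 (Nkx6-2), and Mal from -0.0462 to 0.4919. The signs of Olig1, Olig2 and Nkx6-2 also turned without cKO replicate 4 (-0.0108, -0.0281 and -0.044), the library that takes no part in the block estimate. The cause was not tested. The block changed no other call. Of 300 list medians, 9 moved by more than their spread between libraries.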

Other observations

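Genes that oligodendrocytes raise in injury and inflammation showed no common direction, with 4 positive and 4 negative log2 fold changes among 8. In edgeR, 2 of them, both higher in cKO, were below an unadjusted p of 0.05 (4.22% of all genes in that direction). None, 0 of 8, was below an adjusted p of 0.05. Which cells of the bulk tissue these transcripts came from was not tested. C4b, a complement component, had 69.2 ± 15.6 CPM in cKO (SD, n = 4) and 70.3 ± 14.0 CPM in WT (SD, n = 3), and B2m, the light chain of class I antigen presentation, had 68.5 ± 14.2 and 68.2 ± 6.35 CPM. Klk6, a protease of oligodendrocytes named after its values were seen, had 3.68 ± 0.940 CPM in cKO and 1.77 ± 0.962 CPM in WT. Its log2 fold change was 1.06 ± 0.35 (SE), with an edgeR adjusted p of 0.679. Its counts were low, from 16 (WT replicate 1) to 68 (cKO replicate 3). The groups overlapped, with cKO replicate 4 at 2.51 CPM and WT replicate 3 at 2.84 CPM. Klk6 is also counted in the list of other mature oligodendrocyte genes. Partners of the node and paranode, the axonal side of the contact with myelin, had 7 positive values of 13 and a median of 0.00, and edgeR gave 0 of them an unadjusted or adjusted p below 0.05. Ank2 had 944 ± 46.5 CPM in cKO and 927 ± 63.2 CPM in WT (SD, n = 4 and 3).

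Inhibitory neuron markers had 5 positive values of 8, with Gad1, which makes GABA, at 449 ± 98.4 CPM in cKO and 362 ± 21.2 CPM in WT, and Gad2 at 306 ± 82.1 and 244 ± 25.9 CPM. Endothelial markers had 3 positive values of 8, with Flt1 at 121.8 ± 6.17 and 103.3 ± 5.60 CPM and Slco1a4 at 56.7 ± 5.20 and 56.5 ± 3.92 CPM. The most abundant astrocyte genes were Slc1a2, at 4053 ± 281 CPM in cKO and 4006 ± 225 CPM in WT, and Slc1a3, at 585 ± 29.2 and 584 ± 64.1 CPM, and that of microglia was Csf1r, at 97.2 ± 3.95 CPM in cKO and 104.7 ± 8.09 CPM in WT (SD, n = 4 and 3). The Schwann cell markers include genes that brain also expresses, such as Drp2, at 94.0 ± 3.19 CPM in cKO and 87.1 ± 5.79 CPM in WT, and Cdh19, at 24.9 ± 4.39 and 21.4 ± 1.18 CPM. In the meningeal list Col1a2 had 16.4 ± 5.63 and 17.5 ± 7.75 CPM and Col1a1 9.74 ± 4.06 and 9.30 ± 4.17 CPM, and in the choroid plexus list Kl had 6.02 ± 2.97 and 3.77 ± 0.608 CPM.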
